A study of Mus musculus with 12 samples.

Results

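Immediate early genes are switched on within minutes of a stimulus without new protein synthesis. The 9 genes described here (Fos, Fosb, Fosl2, Jun, Junb, Egr1, Ier2, Nr4a1 and Arc) were chosen by name from the 54367 genes of the deposited tables, and each matched 1 row. They were followed in lasered and control mouse retinas on day 3 and day 7. On day 3, 6 of them (Fos, Fosb, Junb, Ier2, Nr4a1 and Arc) had higher values in every lasered library than in any control, as did 17.4% of all genes above 0 in a library. Arc rests on 1 to 7 reads per library there, and its highest control and its lowest lasered library held 3 reads each. Fosb, Fosl2 and Arc were too low on day 3 to be tested, and none of the other 6 genes passed the test across all genes. On day 7 all 9 were tested and none passed; Fosb was higher without overlap, 1 of 9 genes against 6.78% of all genes tested.

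The series holds 12 retina libraries of wild-type C57BL/6 mice aged 8 to 12 weeks, in 4 groups of 3. The right eye (OD) received 532 nm laser photocoagulation (75 µm spots, 0.1 s) at 4 clock positions of the retina, and the left eye (OS) received no laser and served as control. Both eyes of an animal therefore share strain, anaesthesia and pupil dilation, and retinas were taken 3 or 7 days after the laser. Whole retina was sampled, so burned and unburned tissue lie in 1 library, and the tissue removed with the retina can differ between libraries. The labels tie no replicate number to 1 animal, so each p-value reflects how far these libraries spread, which may in part be technical.

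FOS-family proteins (from Fos, Fosb and Fosl2) pair with JUN-family proteins (from Jun and Junb) through leucine zippers to form AP-1, a factor that binds DNA near genes of proliferation, inflammation and tissue repair. Egr1 encodes a zinc finger factor and Nr4a1 an orphan nuclear receptor, both induced by kinase and calcium signals. Ier2 encodes a nuclear protein of the immediate early response. Arc is not a transcription factor: it encodes a cytoskeleton-associated protein of neuronal synapses that takes part in receptor endocytosis. In retina these genes are known to respond to light, to injury and to the handling of tissue, and Müller glia use AP-1 factors in their reaction to damage. In bulk tissue, fewer cells of a type and less RNA per cell cannot be told apart.

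The RefSeq promoter table (GRCm38.p6, the same assembly as mm10) held 6 of the 9 genes: Fos, Fosb, Fosl2, Jun, Junb and Nr4a1. The cAMP response element core TGACG, a motif through which CREB-type factors act on immediate early genes, was searched on both strands in the 250 bases before the start site. It occurred in Fos (2 matches), Fosb (1), Junb (1) and Nr4a1 (4), and not in these windows of Fosl2 and Jun, while 17.8% of 32851 promoters hold it. The 8-base form TGACGTCA (1.55% of promoters), TGACTCA on both strands (4.46%) and the CArG box of serum response factor (1.47%) had 0 matches in these windows of all 6. Sequence further upstream than 250 bases was not searched, so sites of these factors may lie there. A TATAAA on the plus strand was found in Fos alone, at -33 from the start site (7.59% of promoters). The Fos, Fosb and Junb promoters are shown because, of the 6 genes in the promoter table, these and Nr4a1 did not overlap between groups on day 3, and Nr4a1 did so by the narrowest margin; capitals mark TGACG.
Fos, chr12:85473640-85473889, plus strand: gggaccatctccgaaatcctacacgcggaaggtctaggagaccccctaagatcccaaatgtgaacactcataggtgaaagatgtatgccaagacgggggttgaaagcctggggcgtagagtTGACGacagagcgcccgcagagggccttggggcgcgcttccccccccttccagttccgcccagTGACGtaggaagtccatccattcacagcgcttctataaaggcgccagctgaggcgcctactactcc
Fosb, chr7:19310046-19310295, minus strand: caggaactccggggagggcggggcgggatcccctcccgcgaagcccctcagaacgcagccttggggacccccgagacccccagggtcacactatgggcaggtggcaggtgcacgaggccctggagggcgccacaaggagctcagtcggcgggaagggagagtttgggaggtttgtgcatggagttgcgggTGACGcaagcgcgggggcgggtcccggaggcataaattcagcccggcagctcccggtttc
Junb, chr8:84978749-84978998, minus strand: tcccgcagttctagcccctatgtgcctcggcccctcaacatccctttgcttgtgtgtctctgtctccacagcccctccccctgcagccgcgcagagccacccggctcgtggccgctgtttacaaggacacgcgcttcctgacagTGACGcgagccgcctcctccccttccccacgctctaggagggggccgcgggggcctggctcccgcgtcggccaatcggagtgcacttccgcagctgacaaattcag
The matches lie at -129 and -66 in Fos, at -60 in Fosb and at -106 in Junb, counted from the first base of the match to the start site. A match describes the letters of the window and no binding was measured here.

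All 9 genes are protein coding and matched GENCODE M21 on mm10 by gene ID. Fos (ENSMUSG00000021250) lies at chr12:85473890-85477273, Fosb (ENSMUSG00000003545) at chr7:19302696-19310051 and Fosl2 (ENSMUSG00000029135) at chr5:32135801-32157842. Jun (ENSMUSG00000052684), with a single exon, lies at chr4:95049034-95052222 and Junb (ENSMUSG00000052837) at chr8:84974484-84978718. Ier2 (ENSMUSG00000053560), also with a single exon, lies on the same chromosome as Junb, at chr8:84661331-84662852. Egr1 (ENSMUSG00000038418) lies at chr18:34859823-34864984, Nr4a1 (ENSMUSG00000023034) at chr15:101254269-101274795 and Arc (ENSMUSG00000022602) at chr15:74669083-74672570. Their exons cover 1522 bases (Ier2) to 9680 bases (Fosl2), over which the values are scaled.

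All values below are the deposited expression values per gene length and library, in 1 table per day. The reads recovered from the values in matched genes numbered between 8738242 and 11879987 in the day 3 libraries, and between 22683036 and 29487232 in those of day 7. Rod markers summed to between 30300 and 37300 in the day 3 controls and to between 66000 and 72000 in the day 7 controls. On day 3 lasered replicate 1 stood apart, with a rod sum of 12900 against 32400 and 24900 in the other lasered libraries. On day 7 lasered replicate 2 had a trend with the GC content of genes, from a median of 0.69 for genes under 45% GC to -0.57 for genes of at least 60%. The values of GC-rich genes were far lower on day 3 than on day 7 in all groups, and the members have GC contents of 51.9% to 62.6%. Lens and corneal markers summed to 228 in lasered replicate 2 of day 3 and to 684 in lasered replicate 1 of day 7, and to at most 2.94 in all other libraries. Erythrocyte markers summed to between 375 and 5490 in the day 3 controls. In the Müller glia and astrocyte list 1 of 10 genes, Gfap, passed as higher on each day. Of all genes tested 0.143% did so on day 3 and 0.237% on day 7. On day 3 no gene of that list passed with the replicate block (limma adjusted p = 0.15 for Gfap), with GC trends removed, or without any 1 control or lasered replicate 3. Without lasered replicate 1, 3 passed, where 279 of all 16396 genes tested passed as higher. On day 7 none passed without any 1 control or lasered replicate 1 or 3. No gene of the rod, cone, bipolar and amacrine, ganglion cell, pigment epithelium, endothelial, lens or erythrocyte lists passed on either day, except Kdr of the endothelial list on day 7 with the replicate block (limma adjusted p = 0.0465).

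**Figure D1:**
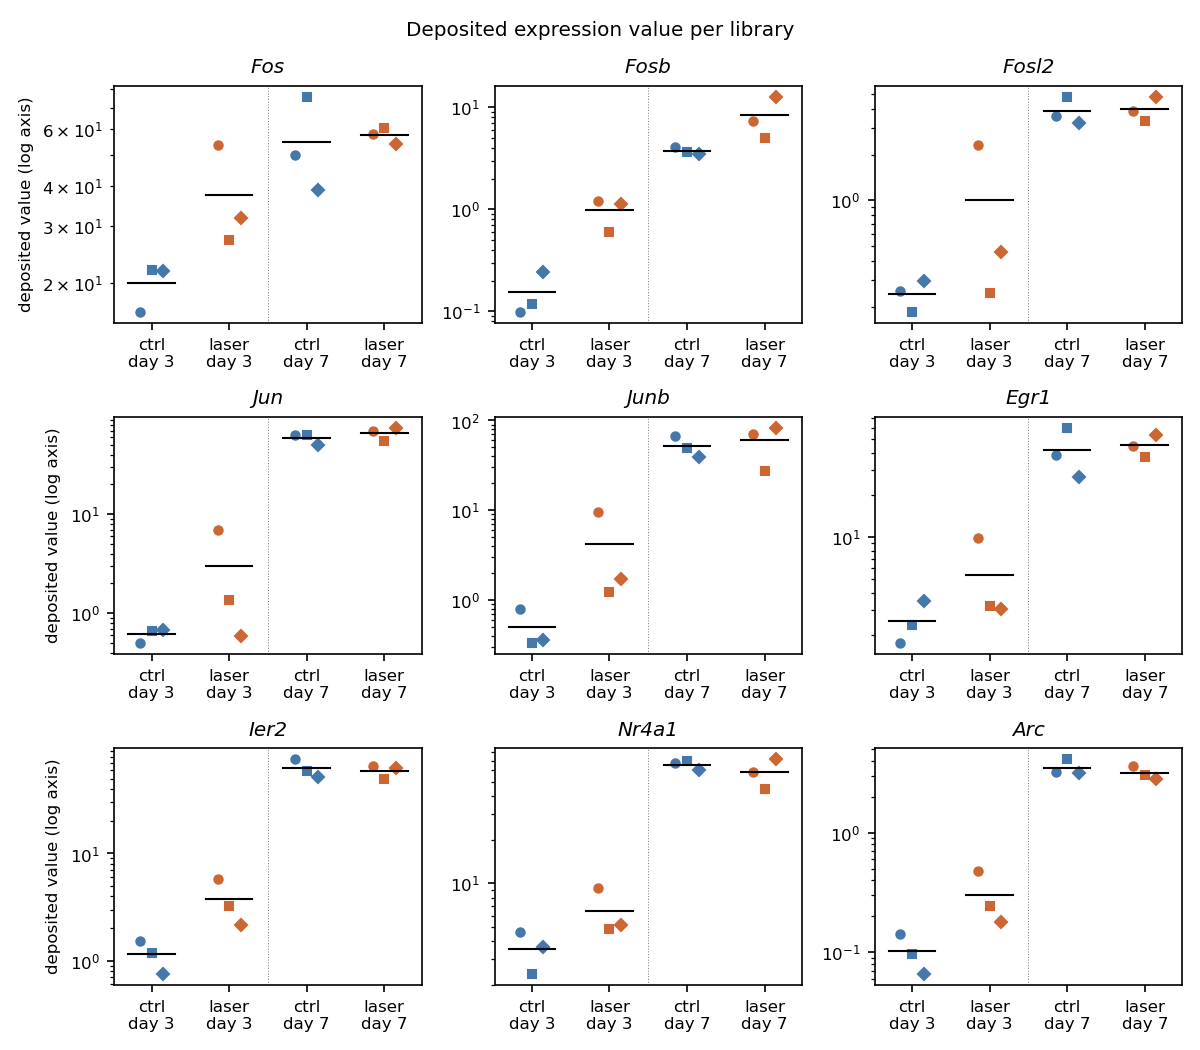
Deposited value of each of the 9 genes in each library (log axis), by group and day; circles, squares and diamonds are replicates 1, 2 and 3 and the bar is the group mean. On day 3 lasered replicate 1 holds the highest value of every gene, and on day 7 the groups overlap for every gene except Fosb.

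The first comparison set immediate early transcripts of lasered retinas against those of control retinas 3 days after the laser. Among the FOS family, Fos was by far the most abundant member, at 16.2, 22.0 and 21.7 in control replicates and 53.7, 27.1 and 31.9 in lasered replicates 1, 2 and 3. The groups did not overlap, and the lowest lasered library lay 1.23 times above the highest control. The log2 difference on the log2(value + 1) scale was 0.83 (SE 0.27, 95% interval 0.20 to 1.45, limma adjusted p = 0.137). Fosb, a FOS protein with a long-lived splice form in brain, had control values of 0.0979, 0.119 and 0.243 and lasered values of 1.22, 0.601 and 1.14. These values rest on 4, 5 and 8 reads against 38, 25 and 37 reads. Its 3 lasered libraries held 100 reads in all (exact Poisson 95% interval 81.4 to 122) against 17 in the controls (9.90 to 27.2), intervals that cover counting error only. Fosl2, the gene of FRA2, had control values of 0.253, 0.184 and 0.293 and lasered values of 2.30, 0.248 and 0.457. Lasered replicate 1 alone held 111 reads of Fosl2, and replicate 2, with 16 reads, lay inside the control range.

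The JUN family varied most between the lasered libraries. Junb had control values of 0.792, 0.328 and 0.359 (12, 5 and 4 reads) and lasered values of 9.58, 1.22 and 1.69 (109, 19 and 22 reads), without overlap. Its log2 difference of 1.43 (SE 0.56, 95% interval 0.10 to 2.76) was the largest among the members and did not pass (limma adjusted p = 0.190). The Junb mean was 8.45 times the control mean, most of it from lasered replicate 1. Jun, the founding partner of Fos in AP-1, had control values of 0.497, 0.657 and 0.681 and lasered values of 6.95, 1.35 and 0.586. The groups overlapped for Jun, since lasered replicate 3 (10 reads) lay within the control range of 10 to 14 reads, and the difference was 0.94 (SE 0.55, limma adjusted p = 0.343). Exons of Junb share 173 bases with Prdx2 on the opposite strand and those of Jun 232 bases with Junos, so their counts are uncertain unless strand was used. Prdx2 was at 192 in the day 3 controls and 246 in the lasered retinas, a log2 difference of 0.36 (limma adjusted p = 0.240).

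Egr1, which overlapped between groups, was at 1.75, 2.36 and 3.50 in controls and 9.89, 3.23 and 3.08 in lasered retinas (0.72, SE 0.40, limma adjusted p = 0.321). Nr4a1 was at 4.6, 2.37 and 3.66 in controls and 9.27, 4.88 and 5.14 in lasered retinas. The separation of Nr4a1 was narrow, with the lowest lasered library 1.06 times the highest control (0.69, SE 0.28, 95% interval 0.03 to 1.36, limma adjusted p = 0.202). Ier2 was at 1.51, 1.17 and 0.746 in controls and 5.81, 3.26 and 2.15 in lasered retinas, from 6 to 15 reads against 17 to 44. Its difference of 1.09 (SE 0.31, 95% interval 0.36 to 1.81) had the smallest p of the members (limma adjusted p = 0.115). In 1 joint fit of the 12 libraries Ier2 passed, with an adjusted p of 0.0392. Its adjusted p lay between 0.0392 and 0.317 over all alternatives. Arc had 3, 2 and 1 reads in controls and 7, 5 and 3 reads in lasered retinas, too few to give a fold change.

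**Figure D2:**
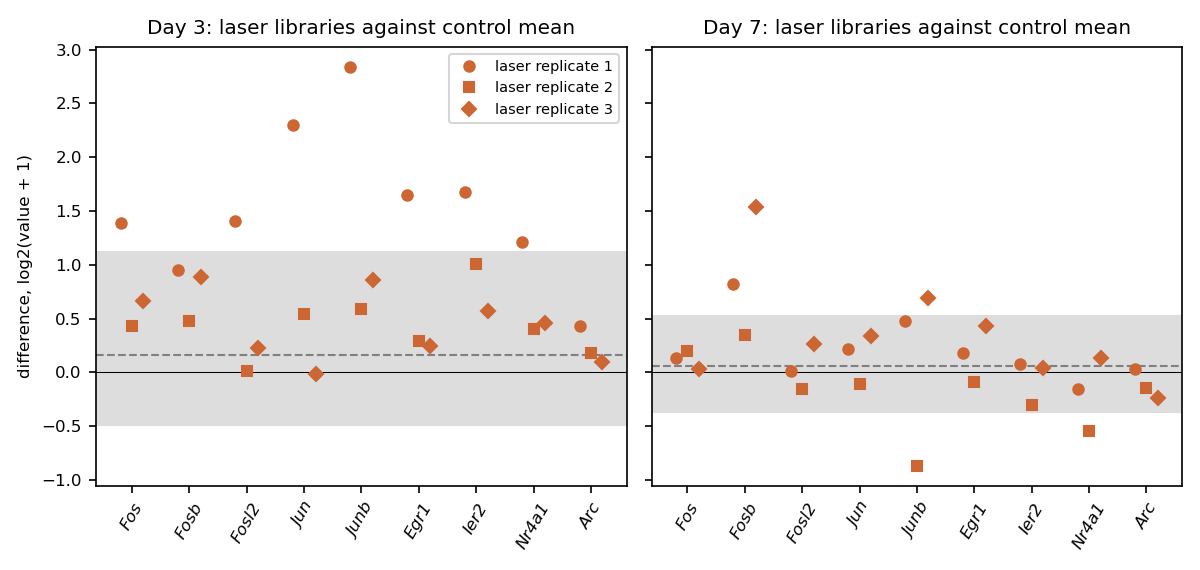
Difference of each lasered library from the mean of the 3 controls of its day, in log2(value + 1), for the 9 genes; the grey band spans the 5th to the 95th percentile and the dashed line the median of the group differences of all tested genes. On day 3 replicate 1 (circles) is the highest for every gene, and on day 7 the points scatter around 0 except for Fosb.

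Of the 9 genes, 6 had a mean of at least 1 on day 3 and were tested; Fosb, Fosl2 and Arc did not reach it. None of the 6 passed at an adjusted p of 0.05, where 0.143% of 16786 genes passed as higher and 0.00596% as lower. At an unadjusted p under 0.05, 4 of them were higher (Fos, Junb, Ier2 and Nr4a1), against 20.7% of all genes tested (2.29% were lower), and voom on recovered reads also called 0 members. Jun and Junb had control means under 1 and reached the minimum through the lasered libraries, so their being higher follows in part from the filter, and the counts over the tested members are descriptions. Groups without overlap and with higher lasered values were found in 4 of the 6 tested members, where 27.7% of tested genes showed the same and 3.82% the reverse. Of the 3 members under the mean minimum Fosb and Arc did so too, against 7.52% of such genes and 17.4% of all genes above 0 in a library. For Arc the highest control and the lowest lasered library held 3 reads each. The median difference over all tested genes was 0.16, which median-of-ratios rescaling moved to -0.02, and the genes at an unadjusted p under 0.05 then split into 2011 higher and 1462 lower in place of 3476 and 385. After that rescaling the members' differences were 0.61 for Fos, 0.82 for Jun, 1.30 for Junb, 0.55 for Egr1, 0.93 for Ier2 and 0.51 for Nr4a1. With GC trends removed they were 0.62 for Fos, 0.65 for Jun, 0.99 for Junb, 0.38 for Egr1, 0.67 for Ier2 and 0.35 for Nr4a1. The count of 4 at an unadjusted p under 0.05 was 2 without control replicate 1, 2 or 3, 2 without lasered replicate 1 (4 members tested) and 2 with GC trends removed. It was 4 with the replicate block or without lasered replicate 2, and 5 without lasered replicate 3. Over all genes 2065, 2700 and 3098 were higher without control replicates 1, 2 and 3. Without lasered replicates 1, 2 and 3 there were 2678, 3282 and 3440, with the block 3053, and with GC trends removed 1951.

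Lasered replicate 1 held the highest value of all 9 genes among the 6 libraries of day 3. The 9 genes together held 1429 of 8738242 matched reads in that library, 793 of 11879987 and 692 of 9556396 in lasered replicates 2 and 3, and 470 of 11625585, 507 of 11846510 and 445 of 8922160 in the controls. Over the tested members its median difference from the control mean was 1.67 on the log2 scale, against 0.49 and 0.52 in lasered replicates 2 and 3. Without it, the difference was 0.55 for Fos (adjusted p = 0.186), 0.79 for Ier2 (0.164), 0.43 for Nr4a1 (0.398) and 0.26 for Egr1 (0.650), while Jun and Junb fell under the mean minimum. Markers of other cells moved in the same library. The 12 microglia and macrophage markers summed to between 37.5 and 43.6 in controls and to 967, 175 and 231 in the lasered retinas. Of 10 tested, 9 were higher at an unadjusted p under 0.05, against 20.7% of all genes tested. Of the 10, 3 (Adgre1, C1qa and Cx3cr1) had a control mean under 1 and entered through the lasered libraries. The count of higher markers is thus in part fixed by the filter. Among the 10, 1 (C1qb) passed over all genes, where 0.143% of genes tested passed as higher. The count passing was 0 with the replicate block, with GC trends removed and without any 1 control or lasered replicate 3. Leaving out lasered replicate 2 gave 2, where 26 of all 16775 genes tested passed as higher. Leaving out lasered replicate 1 gave 7, where 279 of all 16396 genes tested did. The 8 neutrophil markers summed to between 2.32 and 3.98 in controls and to 1120, 3.65 and 60.8 in the lasered retinas. No marker of either list was at 0 in all libraries. The part of these cells, or of tissue handling, in the values of the immediate early genes was not tested.

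Of 34 other immediate early genes, 23 were tested on day 3, and 22 of them lay above controls, with a median difference of 0.77, where 11455 of all 16786 tested genes lay above controls. Of the 23, 10 had a control mean under 1 and entered through the lasered libraries, so these counts are in part fixed by the filter. None passed over all genes, and 11 were higher at an unadjusted p under 0.05 (20.7% of all genes tested). That count was 6 without control replicate 1 and 7 without control replicate 3 or with GC trends removed. It was 9 to 12 without any other 1 library. Without lasered replicate 1, 4 of 17 tested passed, where 279 of all 16396 genes tested in that fit passed as higher. Gadd45b, a growth arrest and DNA damage gene, had 10, 12 and 4 reads in controls and 210, 106 and 91 in lasered retinas (3.01, SE 0.38, limma adjusted p = 0.0503). Atf3, a stress-induced factor that pairs with JUN proteins, was at 1.28, 2.0 and 2.61 in controls and 47.1, 8.85 and 12.9 in lasered retinas (2.69, SE 0.55, limma adjusted p = 0.0915). Cyr61, a matrix-associated growth signal, differed by 1.98 (SE 0.37, limma adjusted p = 0.0883). All 3 of these, named for their small p, were without overlap between groups, as were 27.7% of all genes tested. Gadd45b and Cyr61 are among the 10 genes that entered through the lasered libraries, so their being higher follows in part from the filter. The medians of this list in lasered replicates 1, 2 and 3 were 1.64, 0.45 and 0.48, close to those of the 9 genes.

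Of 23 kinases and transcription factors upstream of immediate early genes 21 were tested, 7 were higher and 1 lower at an unadjusted p under 0.05, against 20.7% and 2.29% of all genes tested, and the differences ran from -0.91 to 1.89 with a median of 0.36. Of the 21, 2 (Mkl1 and Rps6ka1) had a control mean under 1 and entered through the lasered libraries. With GC trends removed the median was 0.18. Without control replicate 1 the count of higher genes was 3, and it was 5 to 7 without any other 1 library. Without lasered replicate 1 a single gene of the list passed, where 279 of all 16396 genes tested passed as higher. Stat3, which transmits cytokine signals, was at 2.88, 2.86 and 2.84 in controls and 25.1, 9.52 and 9.71 in lasered retinas (1.89, SE 0.35, limma adjusted p = 0.0883). Mapk3, the kinase ERK1, differed by 0.75 (SE 0.18, limma adjusted p = 0.0946). Mef2c, a neuronal activity factor also found in photoreceptors, differed by -0.91 (SE 0.34, limma adjusted p = 0.173). Of 11 feedback genes of MAP kinase signalling 7 were tested, with a median of 0.28 and 1 higher at an unadjusted p under 0.05, against 20.7% of all genes tested. The median was 0.11 without lasered replicate 1 and 0.01 with GC trends removed. The higher gene was Dusp6, a phosphatase of ERK, at 9.42, 13.7 and 11.6 in controls and 30.4, 16.8 and 20.9 in lasered retinas (0.89, SE 0.24, limma adjusted p = 0.109). Of 12 AP-1 partners and cofactors 6 were tested, with a median of 0.46 (0.24 with GC trends removed) and 3 higher at an unadjusted p under 0.05, again against 20.7% of all genes tested. That last count was 0 without control replicate 1 or lasered replicate 1, 1 without control replicate 2 or lasered replicate 3, and 1 with GC trends removed. It was 2 without control replicate 3 and 4 without lasered replicate 2.

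**Figure D3:**
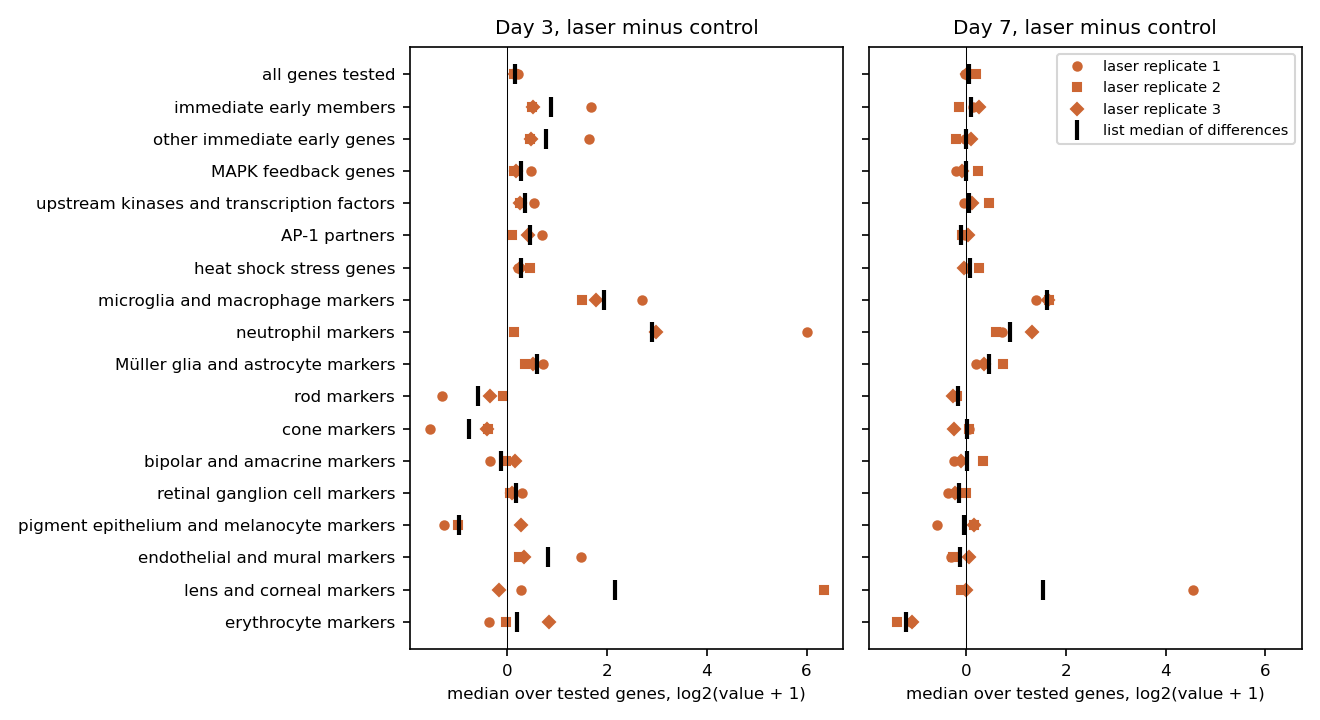
Median difference from controls in log2(value + 1) over the tested genes of each list, per lasered library (symbols), with the median of the group differences (black bars); the first line shows all tested genes. On day 3 the 9 genes and the other immediate early genes lie at medians of 0.88 and 0.77, with replicate 1 at 1.67 and 1.64, and on day 7 at 0.10 and -0.01.

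The next comparison set the groups side by side 7 days after the laser. Fosb had control values of 4.05, 3.64 and 3.45 (236, 223 and 171 reads) and 7.30, 5.01 and 12.7 in lasered replicates 1, 2 and 3 (448, 265 and 777 reads). All lasered libraries lay above all controls, the lowest by 1.24 times, and the lasered mean was 2.25 times the control mean. The difference of 0.90 (SE 0.32, 95% interval 0.15 to 1.66) missed the threshold over all genes (limma adjusted p = 1.0). Its adjusted p lay between 0.100 and 1.0 over all alternatives, and leaving out lasered replicate 3 gave a difference of 0.58, leaving out replicate 2 one of 1.18.

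The other FOS and JUN genes overlapped between groups on day 7. Fos was at 49.8, 75.8 and 38.8 in controls and 58.0, 60.7 and 54.0 in lasered retinas (0.12, 95% interval -0.43 to 0.68). The controls of Fos spread wider than its lasered libraries, with SDs of 19.0 and 3.41. Fosl2 was at 3.56, 4.79 and 3.22 in controls and 3.86, 3.32 and 4.76 in lasered retinas (0.04, 95% interval -0.53 to 0.61). Jun was at 63.6, 63.4 and 50.3 in controls and 68.6, 54.5 and 74.6 in lasered retinas (0.15, 95% interval -0.25 to 0.55). Junb had the widest spread of the 9 genes between lasered libraries, at 71.4, 27.4 and 82.9, against 67.9, 49.6 and 39.5 in controls (0.10, 95% interval -0.87 to 1.07). The low Junb value came from lasered replicate 2, the library in which GC-rich genes were low, and Junb has a GC content of 62.6%. Whether that trend accounts for the low value was not tested, and with GC trends removed the difference of Junb was 0.26.

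Egr1 was at 38.2, 60.1 and 26.7 in controls and 44.9, 37.1 and 53.7 in lasered retinas (0.18, 95% interval -0.51 to 0.86). Nr4a1 was at 68.0, 69.3 and 60.3 in controls and 58.9, 44.5 and 72.2 in lasered retinas (-0.19, 95% interval -0.64 to 0.26). Ier2 was at 76.6, 59.1 and 51.7 in controls and 65.1, 49.8 and 63.4 in lasered retinas (-0.06, 95% interval -0.50 to 0.38). Arc was at 3.23, 4.15 and 3.14 in controls and 3.58, 3.05 and 2.79 in lasered retinas (-0.12, 95% interval -0.65 to 0.41). For these 4 genes the groups overlapped, and the intervals still hold changes in either direction.

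All 9 genes were tested on day 7 and none passed (limma adjusted p = 1.0 for each), where 0.237% of 15592 genes passed as higher and 0.00641% as lower. At an unadjusted p under 0.05 1 of 9 was higher, against 3.14% of all tested genes (0.795% were lower), and voom on recovered reads called 0. Leaving out control replicate 2, control replicate 3 or lasered replicate 3 brought that count to 0, and leaving out lasered replicate 2 brought it to 2. Groups without overlap and with higher lasered values occurred in 1 of 9 members, against 6.78% of tested genes, 2.11% in the reverse direction, and 5.59% of all genes above 0 in a library. Control replicate 3 held the lowest control value of all 9 genes, and lasered replicate 2 the lowest lasered value of 7 of them. The microglia and macrophage markers summed to between 99.0 and 121 in controls and to 472, 430 and 510 in lasered retinas. Of 10 tested, 2 (Adgre1 and Aif1) had a control mean under 1 and entered through the lasered libraries. Of the same 10, 6 passed over all genes. That count was 2 without control replicate 1, control replicate 2 or lasered replicate 1, and 0 without control replicate 3 or lasered replicate 3. The part of these cells in the values of the immediate early genes was not tested. The neutrophil markers summed to between 0.838 and 1.48 in controls and to 2.74, 2.63 and 4.09 in lasered retinas, with Ly6g and Elane at 0 in all libraries.

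Of the 34 other immediate early genes 30 were tested on day 7, with a median of -0.01. Of these 13 lay above controls, where 9585 of all 15592 tested genes did. None passed over all genes, and 3 were higher at an unadjusted p under 0.05 (3.14% of all genes tested): Atf3, Gadd45b and Fosl1. Fosl1 and Homer1 had control means under 1 and entered through the lasered libraries, so the higher Fosl1 follows in part from the filter. Atf3 was at 15.7, 15.2 and 14.1 in controls and 27.6, 29.9 and 35.3 in lasered retinas (0.99, SE 0.16, limma adjusted p = 0.109). Gadd45b was at 27.9, 25.6 and 20.7 in controls and 55.5, 41.4 and 57.5 in lasered retinas (1.02, SE 0.19, limma adjusted p = 0.183). With GC trends removed 2 genes of this list passed, where 71 of all 15592 genes tested passed as higher. Fosl1, which encodes the FOS protein FRA1, was at 0.508, 0.531 and 0.444 in controls and 2.44, 0.885 and 2.25 in lasered retinas (0.89, SE 0.30, limma adjusted p = 0.961). Jund, the JUN gene with the most constant expression in many tissues, was at 151, 116 and 119 in controls and 144, 41.8 and 151 in lasered retinas, and its low value again came from lasered replicate 2.

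Among the upstream genes Stat3 rose on day 7, from 25.1, 31.4 and 26.1 in controls to 57.6, 61.7 and 68.8 in lasered retinas (1.16, SE 0.15, limma adjusted p = 0.0444). It was the only 1 of 21 tested upstream genes to pass, where 0.237% of all genes tested passed as higher, and the list's median was 0.06. No upstream gene passed without control replicate 1, 2 or 3 or without lasered replicate 1 or 3. The 10 tested feedback genes and the 9 tested AP-1 partners had medians of 0.00 and -0.10, with 0 genes of either list at an unadjusted p under 0.05.

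**Figure D4:**
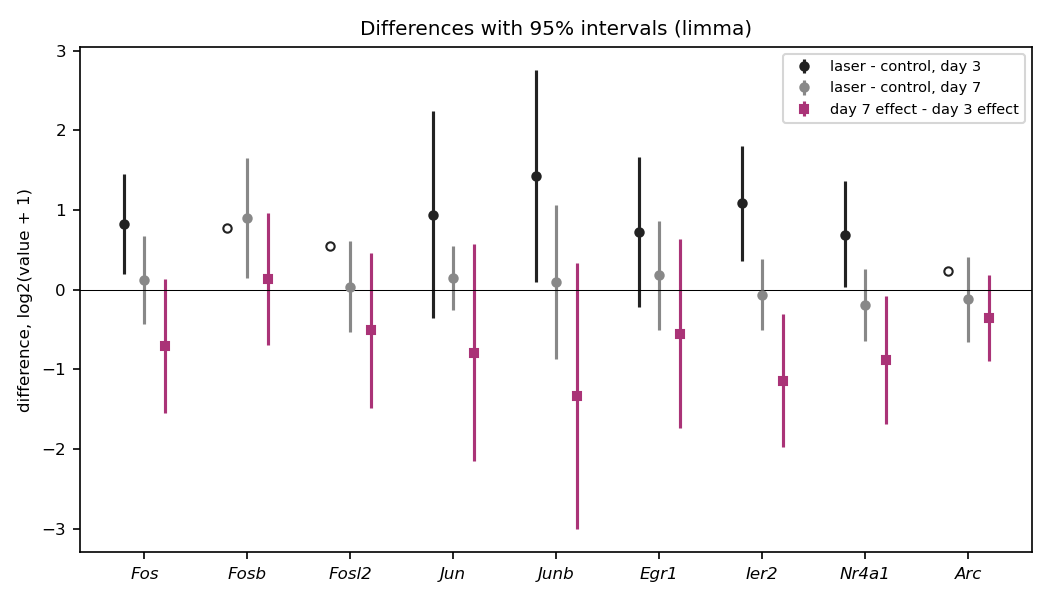
Difference between lasered and control retinas on day 3 (black) and day 7 (grey) and the difference between the 2 days' laser effects (squares) for the 9 genes, in log2(value + 1), with 95% intervals from limma; open circles are day 3 differences of genes under the mean minimum, without a test. Intervals exclude 0 on day 3 for Fos, Junb, Ier2 and Nr4a1 and on day 7 for Fosb, before adjustment over all genes.

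The last comparison concerned whether the laser difference changed from day 3 to day 7. It was formed within each table first, since the tables were normalized separately. For 8 of the 9 genes the difference was smaller on day 7 than on day 3, and for Fosb it was 0.90 against 0.77 (interaction 0.13, 95% interval -0.69 to 0.96). Over all 17611 genes the median change was -0.11, so most genes also had a lower difference on day 7. Of the 8, Fosl2 and Arc were under the mean minimum on day 3. With library weights, whose estimate did not fully converge, the changes of Fosl2, Egr1, Jun and Junb lay above 0. Without lasered replicate 1 of day 3 the changes were -0.42 for Fos, -0.08 for Fosl2, -0.11 for Jun and -0.63 for Junb. In that fit they were -0.09 for Egr1, -0.85 for Ier2, -0.63 for Nr4a1, -0.26 for Arc and 0.22 for Fosb. Ier2 had the smallest p, with a change of -1.15 from 1.09 on day 3 to -0.06 on day 7 (SE 0.38, 95% interval -1.98 to -0.31, limma adjusted p = 0.403). For Nr4a1 the change was -0.88 (SE 0.37, 95% interval -1.68 to -0.08, limma adjusted p = 0.488). Junb changed most, by -1.33, with an interval from -3.01 to 0.34 (limma adjusted p = 0.645). No member and no gene of 17611 passed (0%), while 1485 genes (8.43%) were lower on day 7 and 169 (0.96%) higher at an unadjusted p under 0.05, and voom called 0 genes. Members with low day 3 values, Fosb among them, have differences that depend on the pseudocount. With 0.1 in place of 1 the interaction of Fosb was -1.05, and with voom on recovered reads -1.50.

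The order of the members also differed between the days. In the day 3 controls Fos led at 20 ± 3.24 (SD, n = 3), apart from Nr4a1 (3.54 ± 1.12), which overlapped with Egr1 (2.54 ± 0.890). Ier2 followed at 1.14 ± 0.381, then Jun (0.612 ± 0.0999) and Junb (0.493 ± 0.259), which overlapped. Fosl2 (0.243 ± 0.0552), Fosb (0.153 ± 0.0782) and Arc (0.102 ± 0.0388) came last, each overlapping with its neighbour. In the day 7 controls 6 genes stood close together, from Nr4a1 at 65.9 ± 4.85 through Ier2 (62.4 ± 12.8), Jun (59.1 ± 7.63), Fos (54.8 ± 19.0) and Junb (52.3 ± 14.4) to Egr1 at 41.7 ± 17.0, each overlapping with the next. Fosl2 (3.86 ± 0.825), Fosb (3.72 ± 0.305) and Arc (3.51 ± 0.562) lay below them and overlapped with each other. In the lasered retinas of day 7 Fosb stood apart from Fosl2, at 8.35 ± 3.97 against 3.98 ± 0.728.

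Control levels of all 9 genes were higher in the day 7 table than in the day 3 table. The ratio was 2.74 for Fos, 24.3 for Fosb, 15.8 for Fosl2, 96.6 for Jun, 106 for Junb, 16.4 for Egr1, 54.7 for Ier2, 18.6 for Nr4a1 and 34.4 for Arc. For Arc it rests on 6 reads in the day 3 controls. The tables were normalized separately and no test was made across them. The gap followed GC content over all genes. Its median on the log2(value + 1) scale was -1.34 for 4322 genes under 45% GC, 0.07 from 45% to 50%, 1.15 from 50% to 55%, 2.24 from 55% to 60% and 3.35 for 831 genes of at least 60%. Among the members Fos, with the lowest GC content (51.9%), had the smallest gap at 1.41, and Junb (62.6%) and Ier2 (60.9%) had gaps of 5.16 and 4.89. Arc (59.0%) and Fosb (56.0%) had gaps of only 2.03 each, so the members did not follow GC content closely. Jun, at 55.5% GC, had the largest, 5.22, and 98.5% of genes within 2 percentage points of its GC content had a smaller one. Day and table cannot be told apart.

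**Figure D5:**
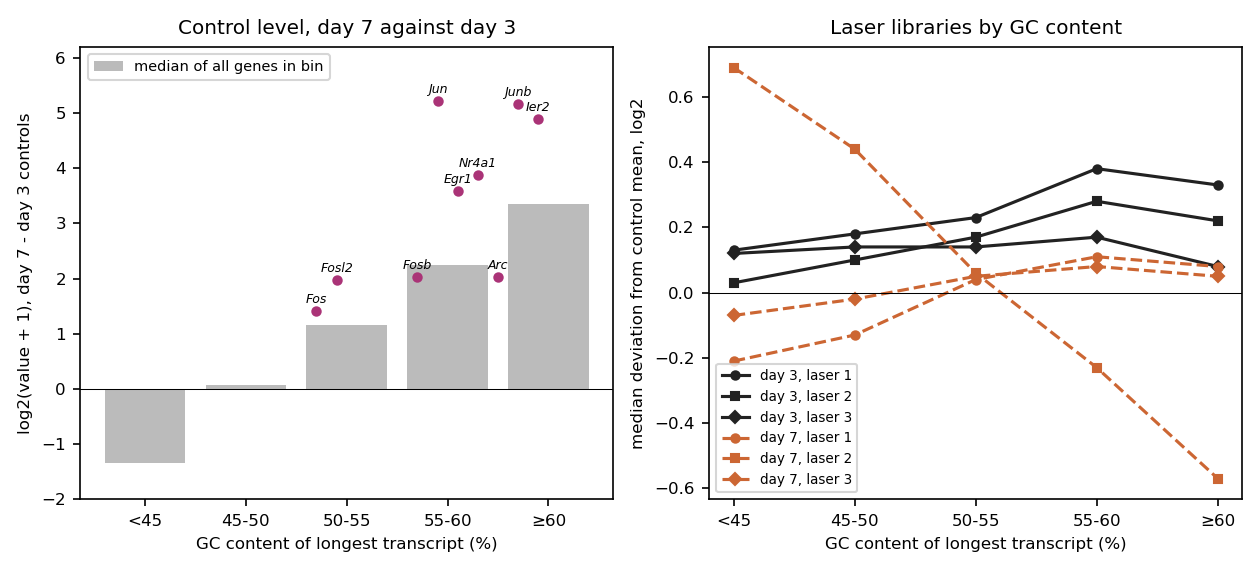
Left, control level on day 7 minus that on day 3 in log2(value + 1) against the GC content of the longest transcript; bars are medians of all genes in a GC range and points are the 9 genes, spread sideways within their range. Right, median deviation of each lasered library from the control mean of its day by GC range; day 7 replicate 2 runs from 0.69 to -0.57, while the other libraries lie between -0.21 and 0.38.

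Genes with a pattern like that of Fos were sought by the root mean square distance of their deviations from the control mean over the 12 libraries, among 12908 genes with a mean of at least 1 on both days. The closest named genes were Thap1, a zinc finger factor of the cell cycle (0.155 on the log2 scale), Ccnb2, a mitotic cyclin (0.180), and App, the amyloid precursor protein (0.180). The median distance over all genes was 0.503. Of the other members in that set Egr1 was closest to Fos at 0.230, then Ier2 (0.369), Nr4a1 (0.377), Jun (0.386) and Junb (0.636). Thap1 differed by 0.70 on day 3 and 0.11 on day 7 between lasered and control retinas (limma adjusted p = 0.124 and 1.0).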

How the data were processed

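Poly(A) RNA of 12 retina libraries was sequenced after a directional kit, per the labels' protocols; per the submitters' processing notes, STAR 2.7.0, edgeR 3.28.0 and mm10 were used, with no step named for each. For the counting step, strand and annotation, details were not given in the sources used here. What the authors deposited is a signal scaled to gene length and library, which they named TPM, with column sums of 953049 to 1045986. Multiplied by the exon length in GENCODE M21, 99.8% of values under 20 reads in each library came out as whole reads (within 0.05), after removal of a factor that cycled over 6 rows and lay between 0.955 and 1.052. These reads come from genes with equal start and end (53681 of 54367) and give the depth. A value for 3 reads in 1 kb of exons was 0.445 to 0.605 on day 3 and 0.292 to 0.380 on day 7. Columns without a sample numbered 0.

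The tables were fitted separately by day with limma (version 3.58.1, R 4.3.3, trended eBayes, 2-sided test) on log2(value + 1). Genes entered where their mean over the day's libraries reached 1, with Benjamini-Hochberg adjustment over all tested genes and a threshold of 0.05. This scale understates changes of low genes. The unit had been taken as TPM when the tests were fixed, and the same test was kept. The fit was tested on simulated reads drawn with the same dispersion for every gene, which was not matched to the spread of these libraries. On day 3 it recovered 51.2% of 2.0-fold and 21.1% of 0.5-fold changes, with 7 false calls. On day 7 these were 80.7% and 77.8%, with 13 false calls. Tables and plots were made in Python 3.11.15 with matplotlib 3.10.9. GC content is that of the longest transcript.

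The 9 genes and the 16 lists (196 genes) of related and marker genes were chosen with earlier results of these data known. The genes named are the members, list genes that passed or had the smallest p (up to 3 per list and day), and the 3 named genes closest to Fos; Jund, Egr2, Prdx2, Junos and Kdr were added after their values were seen. The left eye is the control of the right eye in the design text, but the labels do not tie equal replicate numbers to one animal, so pairing was looked for in the values. Deviations from the group means correlated between equal numbers by 0.485, 0.559 and 0.128 on day 7, which was taken as pairing, and by 0.0413, 0.0162 and 0.0766 on day 3, which was not. On day 7 lasered replicate 3 correlated more with control replicate 1 (0.205) than with its own number. Control replicate 2 of day 7 also had a GC trend, from 0.24 under 45% GC to -0.11 at 60% or more. Whether a shared technical trend gave these correlations was not tested. The main fits of both days hold no pairing. Alternatives were other pseudocounts, filters, scalings, blocks, weights, a joint fit, voom on recovered reads and leaving out each library; undoing the cyclic factor and removing GC trends were added after the data were seen.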

Additional observations from a re-analysis of the deposited data

How the results depend on the processing

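No member passed in any of the alternatives run on day 7 or between the days, and on day 3 Ier2 alone passed, in the joint fit (1 member). On day 3 all 106 member differences under alternatives stayed above 0, where 11455 of all 16786 tested genes lay above controls in the main fit. The alternatives refit the same libraries, so these values are not independent. Jun and Junb have no value without lasered replicate 1, since they then fell under the mean minimum. Genes past the threshold on day 3 (25 in all) numbered 0 with the replicate block, with the block and GC trends removed and without the filter, 14 with median-of-ratios rescaling, 12 with quantile normalization, 1016 in the joint fit, 369 with library weights, 13 with voom and 1 with GC trends removed. Leaving out 1 library gave 0 to 294, the highest without lasered replicate 1 and 0 without any control. On day 7 (38 genes) there were 13 without the filter, 24 with median-of-ratios rescaling, 22 in the joint fit, 114 with library weights, 15 with voom and 76 with GC trends removed, and 0 to 41 when 1 library was left out, with 0 without control replicate 3 or lasered replicate 3. Between the days (0 genes) there were 2 with a pseudocount of 0.1, 28 without the filter and 1119 with library weights, whose estimate did not fully converge, and 0 to 3 when 1 library was left out.

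Some directions turned. On day 7 Fosl2 was at -0.04 with median-of-ratios rescaling, -0.06 with quantile normalization and -0.02 with GC trends removed (also with the block), Junb at -0.0029 with median-of-ratios rescaling, Ier2 at 0.25 with library weights and 0.05 with GC trends removed (also with the block), and Arc at 0.10 with library weights. Leaving out 1 library on day 7 gave -0.09 to 0.38 for Fos, -0.07 to 0.17 for Fosl2, -0.10 to 0.47 for Egr1, -0.20 to 0.58 for Junb and -0.19 to 0.09 for Ier2. Between the days Fosl2 turned to 0.19, Egr1 to 0.48, Jun to 0.02 and Junb to 0.08 with library weights, Arc to 0.0034 with GC trends removed, and Fosb to -1.05 with a pseudocount of 0.1 and -1.50 with voom, with -0.19 to 0.41 when 1 library was left out. The cause was not tested. The replicate block, used where equal numbers deviated together (day 7) and where they shared only a number (day 3), changed the call of no member on either day. Fosb, Fosl2, Arc, Ier2 and the JUN genes rest on few reads on day 3 (Ier2 on 33 in the controls and 94 in the lasered libraries), where depth limits what can be seen.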

Other observations

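Heat shock genes, many of which respond to the same stresses as immediate early genes, were measured as a list of 8. On day 3 6 were tested, with a median difference of 0.28 (0.07 with GC trends removed), 0 passing over all genes and 2 higher at an unadjusted p under 0.05, against 20.7% of all genes tested. These were Dnajb1, a co-chaperone of HSP70, at 5.79, 8.36 and 7.27 in controls and 28.3, 20.5 and 14.8 in lasered retinas (1.41, SE 0.25, limma adjusted p = 0.0883), and Hsph1, a nucleotide exchange factor of HSP70, at 3.05, 2.45 and 1.93 against 7.19, 4.59 and 3.92 (0.82, SE 0.24, limma adjusted p = 0.119). Both were without overlap between groups. Without lasered replicate 1, 1 gene of the list passed, where 279 of all 16396 genes tested passed as higher. On day 7 8 were tested, with a median of 0.08 and 0 at an unadjusted p under 0.05.

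Egr2, a zinc finger factor related to Egr1, had 1, 0 and 1 reads in the day 3 controls against 210, 9 and 13 after laser. On day 7 the controls held 1, 2 and 0 reads and the lasered libraries 15, 41 and 26. It was without overlap and higher after laser on both days. The same held for 17.4% of all genes above 0 in a library on day 3 and 5.59% on day 7. On day 3 its control mean was under 1, so it entered the test through the lasered libraries. Its difference did not pass there (1.63, limma adjusted p = 0.271), and on day 7 it was under the mean minimum and not tested. It was chosen for mention after its values were seen.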
